A study of Danio rerio with 6 samples.

Results

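The lysosomal enzymes and the proton pump of the zebrafish ventricle were followed with age through 73 genes of the 32520 in the count table. The members were chosen by symbol: the cathepsins and legumain (19 genes), the subunits and accessory proteins of the vacuolar proton pump (27 genes), other hydrolases with the saposin precursor (10 genes), and membrane proteins and lipid transporters of the lysosome (17 genes). At least 1 read was counted for 70 of them, and ctslb, ctslb.4 and atp6ap1la had 0 counts in all 6 libraries. The name table gives 18 members under 9 shared symbols, mostly the copies that zebrafish keep of a single mammalian gene, and these are told apart here by their Ensembl numbers.

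Poly(A) RNA was sequenced from the ventricles of 3 old fish (4 years) and 3 young fish (7 months), all uninjured wild types bred from crosses between the AB and TU lines. The old libraries carry the replicate numbers 1, 3 and 5 and the young libraries 1, 2 and 5, and values are given below in that order. The sex of the fish was not given in the sources used here, the series design calls the samples individuals, and the 3 libraries of a group were those of best RNA integrity, so the spread between libraries is a spread between selected fish. The heart ventricle is a mixture of muscle, endocardium, epicardium, blood and resident immune cells, and in such bulk RNA more cells of a type cannot be told apart from more RNA per cell.

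Lysosomes are acidic organelles in which proteins, lipids and sugars taken up from outside the cell or delivered by autophagy are broken down. Their acid interior is made by the V-type proton pump, whose cytosolic V1 part splits ATP and turns a ring of the membrane part V0 that carries protons inward, and most cathepsins, the proteases of the lysosome, work only at that low pH. Every cell of the heart holds lysosomes, while macrophages, which digest what they engulf, are especially rich in them, and cathepsin S in mammals is known above all from cells that present antigen.

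The libraries held between 17742389 and 22547518 counts, which puts the limit that 0 counts allow (3 counts) at 0.124 to 0.161 CPM (reads of a gene per 1000000 counted reads, after scaling by the TMM factors of edgeR). Of the 24835 genes with a read, 213 (0.858%) were past an adjusted p of 0.05 between old and young ventricles (quasi-likelihood test of edgeR, Benjamini-Hochberg method), 129 higher and 84 lower in old fish. Summed cardiomyocyte markers reached 54143, 51595 and 61387 CPM in old ventricles and 49420, 63903 and 68085 CPM in young ventricles. Summed atrial markers were 173, 174 and 245 CPM in old ventricles and 480, 169 and 227 CPM in young ventricles. Young replicate 1 stood apart mostly through a myh6 gene (ENSDARG00000090637), with 301 CPM there and at most 30.9 CPM in any other library. An nr2f1 gene (ENSDARG00000052695) was also highest there, with 13.9 CPM against at most 2.89 CPM in any other library. The remaining atrial markers were highest in other libraries, but not all of them bear much weight. A myh6 gene (ENSDARG00000114031) and an nr2f1 gene (ENSDARG00000017168) had at most 24 and 6 reads in any library. Another myh6 gene (ENSDARG00000079564) had 104 to 193 CPM over the 6 libraries, and nr2f2 had 23.4 to 35.5 CPM. Whether that library held atrial tissue was not tested. Of the other cell types, macrophage, erythrocyte, lymphocyte and osteoclast-like markers separated by age in their sums, while endothelial, fibroblast and epicardial, neutrophil and atrial markers overlapped. The lymphocyte sum rested mostly on ighm, and tnfrsf11a was the only gene of the osteoclast-like list with separated libraries. Summed macrophage markers stood at 1161, 319 and 807 CPM in old ventricles against 303, 223 and 157 CPM in young ventricles, while summed erythrocyte markers stood at 407, 444 and 418 CPM in old ventricles against 2295, 802 and 1184 CPM in young ventricles.

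No lysosomal member passed the threshold. By edgeR's quasi-likelihood test 0 of the 70 were past an adjusted p of 0.05, where the share of all tested genes was 0.858%, and the smallest adjusted p of a member was 0.0928 (ctss2.1). At an unadjusted p under 0.05 there were 12 members higher in old fish (17.1%, against 8.64% of all tested genes) and 1 lower (lamp2, where the share of all tested genes was 6.5%). DESeq2, run on the same genes, called 4 members at an adjusted p of 0.05, where the share of all tested genes was 4.95%. All 4 were higher in old fish (2.99% of all tested genes) and 0 were lower (1.96%), and they were ctss2.1, ctss2.2, tpp1 and npc2 (ENSDARG00000096979).

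The values leaned upward without passing the test. All 3 old libraries lay above all 3 young libraries in 17 members (24.3%, against 10.4% of all tested genes) and below them in 3 (4.29%, against 9.66%). The fitted log2 fold change, old over young, was above 0 in 55 members and below 0 in 15, where 51.3% of all tested genes were above 0 and 48.7% below. Among the 56 members with a mean of at least 1 CPM the median log2 fold change was 0.29, beside −0.04 over all 13262 genes at that level. How far the values lie from 0 depends on scaling: with library size alone, without the TMM factors, the median of all genes at that level moved up by 0.178 on the log2 scale.

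**Figure D1:**
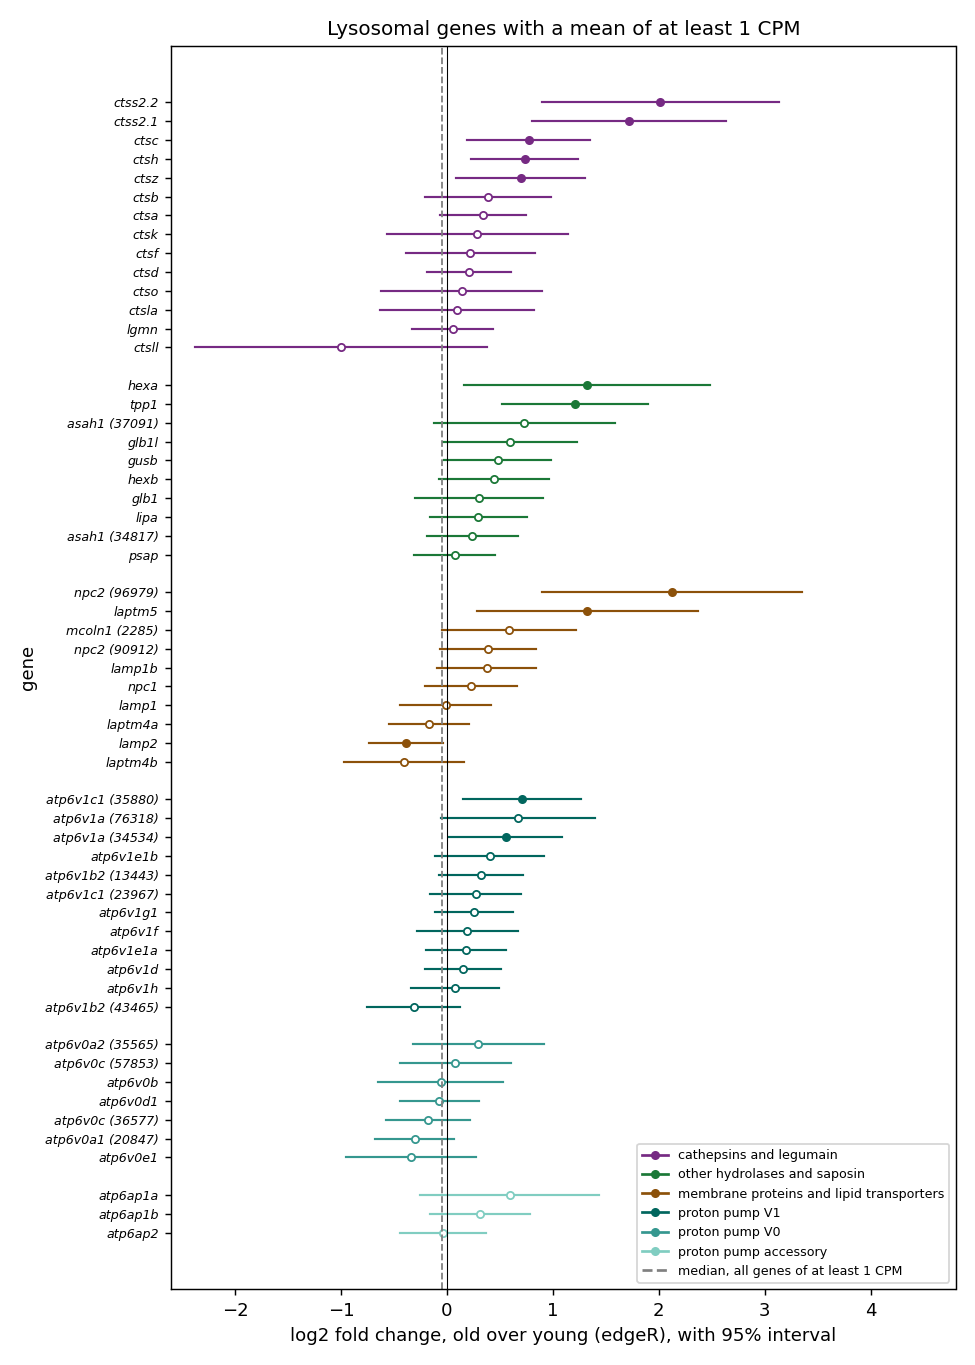
Fitted log2 fold change, old over young, of each lysosomal gene with a mean of at least 1 CPM (point) with its 95% interval (line), grouped by role; filled points have an unadjusted p under 0.05, and the dashed line is the median of all genes at that level (−0.04). Most cathepsins and all 10 other hydrolases lie right of the dashed line, the V0 subunits lie about it, and no gene passed an adjusted p of 0.05. Digits after a shared symbol are the last ones of its Ensembl number.

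Among cathepsins with a mean of at least 1 CPM the largest fitted log2 fold changes were those of a pair of cathepsin S genes, ctss2.1 and ctss2.2. Cathepsin S is a cysteine protease that, in mammals, trims the invariant chain off MHC class II molecules and stays active outside the lysosome. ctss2.1 had 26.1, 8.73 and 14.05 CPM in old ventricles and 4.61, 6.81 and 3.42 CPM in young ventricles. ctss2.2 had 36.4, 7.87 and 13.6 CPM in old ventricles and 5.91, 4.01 and 4.39 CPM in young ventricles. The old and young ranges stayed apart in both genes, old replicate 1 was far the highest, and old replicate 3 came closest to the young fish.

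The fitted log2 fold change was 1.72 ± 0.41 for ctss2.1 (SE, n = 3 each, 95% interval 0.80 to 2.64, edgeR adjusted p = 0.0928) and 2.02 ± 0.50 for ctss2.2 (0.90 to 3.13, edgeR adjusted p = 0.102), which are 3.29-fold and 4.04-fold on the linear scale. DESeq2 gave adjusted p-values of 0.00582 for ctss2.1 and 0.00524 for ctss2.2. Without old replicate 3 both passed in edgeR as well (log2 fold change 2.02, adjusted p = 0.0423 for ctss2.1 and 2.39, adjusted p = 0.0351 for ctss2.2), in a fit that called 0.867% of all tested genes higher. Without old replicate 1 neither passed, and the log2 fold change was 1.2 for ctss2.1 (adjusted p = 0.114) and 1.17 for ctss2.2 (adjusted p = 0.0995). Over the other settings tried the adjusted p ran from 0.00582 to 0.248 for ctss2.1 and from 0.00524 to 0.337 for ctss2.2.

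In the RefSeq annotation of the GRCz12tu assembly ctsk, ctss2.1 and ctss2.2 follow each other with no protein-coding gene between them. Cathepsin K, which digests collagen and elastin and is best known from osteoclasts, had 69.8, 46.2 and 32.5 CPM in old ventricles and 26.4, 29.6 and 65.7 CPM in young ventricles, so its age groups overlapped widely. Its log2 fold change of 0.29 had an interval of −0.57 to 1.14. The third cathepsin S gene, ctss1, was near the limit of detection, with 11, 2 and 43 reads in old ventricles and 2, 0 and 0 reads in young ventricles. All young libraries were at or under 3 counts. Its mean in old ventricles was 5.31 times the mean of that limit over the young libraries, a value carried by old replicate 5 (edgeR adjusted p = 0.152).

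The exopeptidase cathepsins formed the next tier. Cathepsin C, which activates the serine proteases stored in leukocyte granules, had 70.8, 33.5 and 52.2 CPM in old ventricles and 29.1, 29.8 and 32.7 CPM in young ventricles. Cathepsin H, an aminopeptidase, had 34.9, 21.1 and 28.2 CPM in old ventricles and 14.5, 17.8 and 18.2 CPM in young ventricles. Cathepsin Z, a carboxypeptidase, had 27.9, 13.2 and 17.8 CPM in old ventricles and 11.6, 11.5 and 13.3 CPM in young ventricles. The groups did not overlap for ctsc and ctsh and touched for ctsz, and in each of the 3 genes old replicate 1 was highest and old replicate 3 lowest among the old fish. The log2 fold changes were 0.77 ± 0.26 for ctsc, 0.74 ± 0.22 for ctsh and 0.70 ± 0.27 for ctsz (SE, n = 3 each), with edgeR adjusted p-values of 0.196, 0.162 and 0.265. Cathepsin A, a serine carboxypeptidase that also shields β-galactosidase and neuraminidase from degradation, had 43.6, 31.9 and 38.8 CPM in old ventricles and 28.3, 30.9 and 31.3 CPM in young ventricles, without overlap, and its log2 fold change of 0.34 had an interval of −0.07 to 0.75.

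The endopeptidases with most reads overlapped between the ages. Cathepsin B had 113, 56.5 and 120 CPM in old ventricles and 80.6, 68.0 and 72.7 CPM in young ventricles. Here old replicate 3 lay below every young library and the other old libraries above all of them, so the log2 fold change of 0.39 had an interval of −0.21 to 0.98. Cathepsin D, the aspartic protease that degrades long-lived proteins, had 92.7, 74.1 and 96.7 CPM in old ventricles and 67.2, 75.6 and 85.0 CPM in young ventricles (log2 fold change 0.21, −0.19 to 0.61). ctsla, a cathepsin L gene, had 91.6, 130 and 132 CPM in old ventricles and 80.2, 74.9 and 176 CPM in young ventricles, where young replicate 5 was the highest of all 6 libraries. Its log2 fold change of 0.10 (−0.63 to 0.82) turned to −0.08 without young replicate 1 and to −0.12 without young replicate 2.

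Legumain, the asparagine-specific protease that matures several cathepsins, had the fitted value nearest to 0 among the cathepsins. lgmn had 109, 80.4 and 101 CPM in old ventricles and 98.5, 89.0 and 92.6 CPM in young ventricles. The log2 fold change of 0.06 had an interval of −0.33 to 0.44, and it turned to −0.04 without old replicate 1.

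The remaining cathepsins stayed within the spread between fish. Cathepsin F had 38.3, 86.4 and 62.7 CPM in old ventricles and 50.2, 50.2 and 60.3 CPM in young ventricles, and old replicate 3, the lowest old library in 9 of the 14 genes of this group with a mean of at least 1 CPM, was highest here. Of the 17 cathepsins with reads, legumain counted among them, ctsll alone had a fitted value below 0, at a log2 fold change of −1.0 with an interval of −2.38 to 0.38. ctso gave 0.14 (−0.62 to 0.90), and ctsbb and ctsl.1 were counted with at most 16 reads in any library. ctsl.1 had 1, 0 and 11 reads in old ventricles and 0, 1 and 0 reads in young ventricles, so that 1 old library held nearly all of its reads.

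As a group, 16 of the 17 cathepsins with reads had a fitted value above 0, and 6 of them (35.3%, against 8.64% of all tested genes) had an unadjusted p under 0.05, all higher in old fish. The libraries did not overlap, with old higher, in 6 genes (35.3%, against 10.4%), although for ctss1 old replicate 3 and young replicate 1 had 2 reads each and differ only by scaling. These are shares of a small family with 3 cathepsin S genes in it. The summed CPM of the cathepsins was 761, 598 and 718 in old ventricles and 509, 495 and 661 in young ventricles, and these ranges overlapped through old replicate 3 and young replicate 5.

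**Figure D2:**
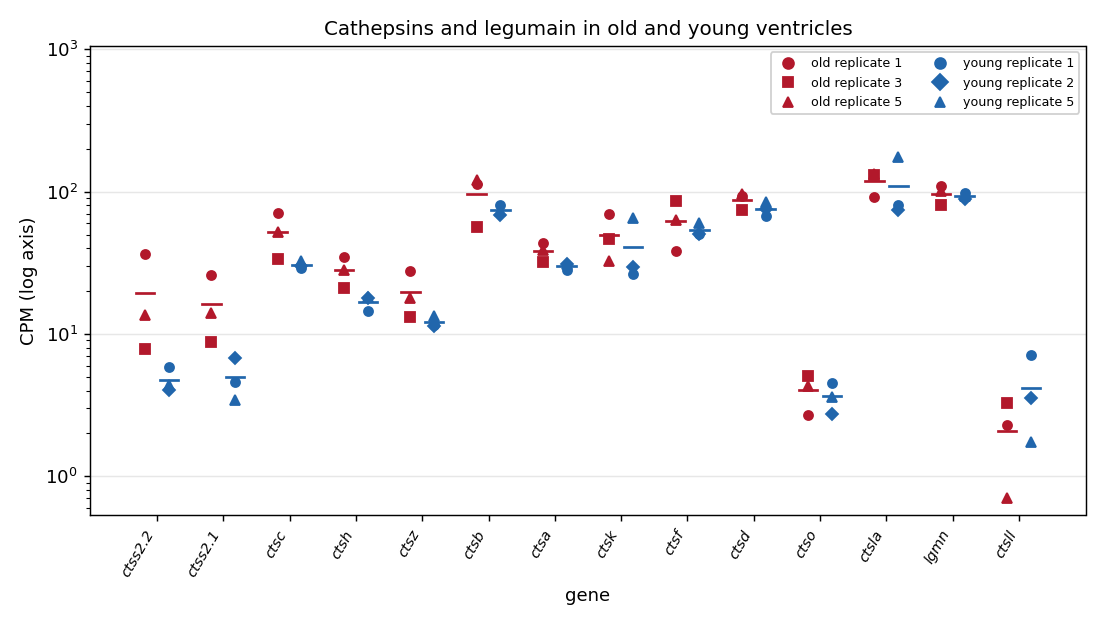
CPM (log axis) of the 14 genes of the cathepsin and legumain group with a mean of at least 1 CPM, in the 3 old (red) and 3 young (blue) ventricles; points are libraries, with the same marker for the same replicate number, and bars are group means. ctss2.2 and ctss2.1 at the left show old libraries clear of young ones, with old replicate 3 the lowest of the old, while ctsk, ctsla and lgmn at the right and centre overlap.

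The other hydrolases were all fitted on one side. All 10 had a value above 0, with a median log2 fold change of 0.46, beside −0.04 over all genes with a mean of at least 1 CPM, and 0 of them passed the threshold in edgeR. The widest separation was that of tripeptidyl peptidase 1, which removes tripeptides from the ends of proteins and whose loss in humans causes a lysosomal storage disease of the brain. tpp1 had 24.7, 10.17 and 15.3 CPM in old ventricles and 7.51, 6.91 and 7.25 CPM in young ventricles. The young fish were nearly identical and the old fish were all above them, though apart from each other. On the log2 scale the fold change was 1.21 ± 0.31 (SE, n = 3 each, 0.52 to 1.90, edgeR adjusted p = 0.107), with an adjusted p of 0.0172 in DESeq2 and of 0.0414 in edgeR without old replicate 3. These were the only 2 of 15 alternative settings in which tpp1 passed, and its adjusted p reached 0.335 among the others.

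The enzymes that strip sugars from glycoproteins and glycolipids followed with smaller differences or a wider spread. β-Hexosaminidase is built from an α and a β chain. hexa, the α chain, had 7.30, 1.61 and 8.14 CPM in old ventricles and 2.45, 2.27 and 2.09 CPM in young ventricles, so that a pair of old fish stood above all young fish and old replicate 3 below them. The fitted log2 fold change was 1.32 ± 0.52 (edgeR adjusted p = 0.264), and 1.76 with an adjusted p of 0.0345 when old replicate 3 was left out. That was the only 1 of 15 alternative settings in which hexa passed, and its adjusted p reached 0.515 among the others. hexb, the β chain, had 36.3, 28.9 and 32.1 CPM in old ventricles and 22.2, 17.9 and 31.4 CPM in young ventricles (log2 fold change 0.44, −0.08 to 0.96). gusb, β-glucuronidase, had 42.6, 37.0 and 24.0 CPM in old ventricles and 25.4, 24.4 and 24.5 CPM in young ventricles (0.48, −0.02 to 0.99), and old replicate 5 was the one that matched the young fish.

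β-Galactosidase, the enzyme behind the common staining for senescent cells, was singled out for that use after its values were seen. glb1 had 8.25, 8.08 and 8.43 CPM in old ventricles and 7.21, 4.45 and 8.43 CPM in young ventricles. The old fish were alike and the young fish reached the same level in replicate 5, and the log2 fold change of 0.30 had an interval of −0.30 to 0.90. The related gene glb1l had 10.3, 11.5 and 15.9 CPM in old ventricles and 9.26, 10.19 and 5.51 CPM in young ventricles (0.60, −0.04 to 1.23), without overlap.

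Among the lipid hydrolases, lipa, the acid lipase that splits cholesteryl esters and triglycerides, gave a log2 fold change of 0.30 (−0.16 to 0.75). Acid ceramidase is kept as a pair of genes, both named asah1. The one with more reads (ENSDARG00000034817) had 34.3, 24.9 and 34.3 CPM in old ventricles and 24.9, 25.8 and 28.3 CPM in young ventricles (0.24, −0.19 to 0.67), and the other (ENSDARG00000037091) gave 0.73 (−0.12 to 1.59) at a lower count. Without overlap between the ages were 4 of the 10 hydrolases (40%, against 10.4% of all tested genes), namely tpp1, glb1l, the asah1 gene with fewer reads and lipa, whose lowest old and highest young library were nearly level (18.95 and 18.94 CPM). psap, the precursor of the saposins that present lipids to these enzymes, had 339, 277 and 293 CPM in old ventricles and 273, 250 and 342 CPM in young ventricles. The log2 fold change of 0.07 (−0.31 to 0.45) turned to −0.01 without old replicate 1 and to −0.02 without young replicate 2.

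The membrane proteins and lipid transporters lay on both sides of 0. NPC2 is a small soluble protein that picks up cholesterol in the lysosome and hands it to the membrane protein NPC1 for export. Zebrafish carry neighbouring npc2 genes, which follow each other in the RefSeq annotation with no protein-coding gene between them. The gene with fewer reads (ENSDARG00000096979) had 4.44, 1.5 and 1.69 CPM in old ventricles and 0.701, 0.676 and 0.357 CPM in young ventricles, without overlap. The fitted value was a log2 fold change of 2.13 ± 0.55 (SE, n = 3 each, 0.90 to 3.35, edgeR adjusted p = 0.112, DESeq2 adjusted p = 0.0151). Old replicate 1 stood apart here too, and without it the log2 fold change was 1.46 (adjusted p = 0.192). The gene with more reads (ENSDARG00000090912) had 49.0, 35.4 and 36.8 CPM in old ventricles and 27.7, 28.5 and 36.3 CPM in young ventricles (0.39, −0.06 to 0.84). npc1 itself gave 0.23 (−0.21 to 0.66).

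The LAMP proteins line the inner face of the lysosomal membrane as a sugar coat, and LAMP2 is also the receptor through which single proteins enter for chaperone-mediated autophagy. In humans the loss of LAMP2 causes a disease of heart and skeletal muscle. lamp2 had 147, 127 and 124 CPM in old ventricles and 159, 189 and 171 CPM in young ventricles. It was the one member with an unadjusted p under 0.05 on the low side, and the old fish lay below the young ones without overlap, at a log2 fold change of −0.38 ± 0.16 (SE, n = 3 each, −0.74 to −0.03, edgeR adjusted p = 0.283). The others did not follow it. lamp1b had 30.05, 43.5 and 40.6 CPM in old ventricles and 26.6, 26.5 and 34.9 CPM in young ventricles (0.37, −0.09 to 0.84), lamp1 gave −0.01 (−0.44 to 0.42), and lamp3, a marker of mature dendritic cells in mammals, had at most 1.61 CPM in any library and a fitted value of 1.87 with an interval of −0.06 to 3.80.

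The LAPTM family of multi-span membrane proteins sorts other proteins into the lysosome. laptm5, which in mammals is made in blood cells, had 13.2, 3.37 and 7.07 CPM in old ventricles and 3.96, 3.29 and 2.2 CPM in young ventricles. Old replicate 3 lay within the young range, and the log2 fold change was 1.33 ± 0.46 (SE, n = 3 each, edgeR adjusted p = 0.214, DESeq2 adjusted p = 0.0998), or 0.73 without old replicate 1. The widely expressed relatives stood on the other side of 0. laptm4a had 159, 124 and 118 CPM in old ventricles and 151, 158 and 142 CPM in young ventricles, at a log2 fold change of −0.17 (−0.55 to 0.21) that turned to 0.005 with library size alone. laptm4b gave −0.41 (−0.97 to 0.16). The mucolipin calcium channels were sparse: of 5 genes only mcoln1 (ENSDARG00000002285) had a mean of at least 1 CPM, with 8.34, 4.93 and 6.73 CPM in old ventricles and 5.26, 3.77 and 4.29 CPM in young ventricles (0.59, −0.05 to 1.22). mcoln3 had 1, 4 and 8 reads in old ventricles and 1, 0 and 2 reads in young ventricles, the remaining mucolipin genes had at most 17 reads in any library, and npc1l1 and lamp5 had at most 1.

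**Figure D3:**
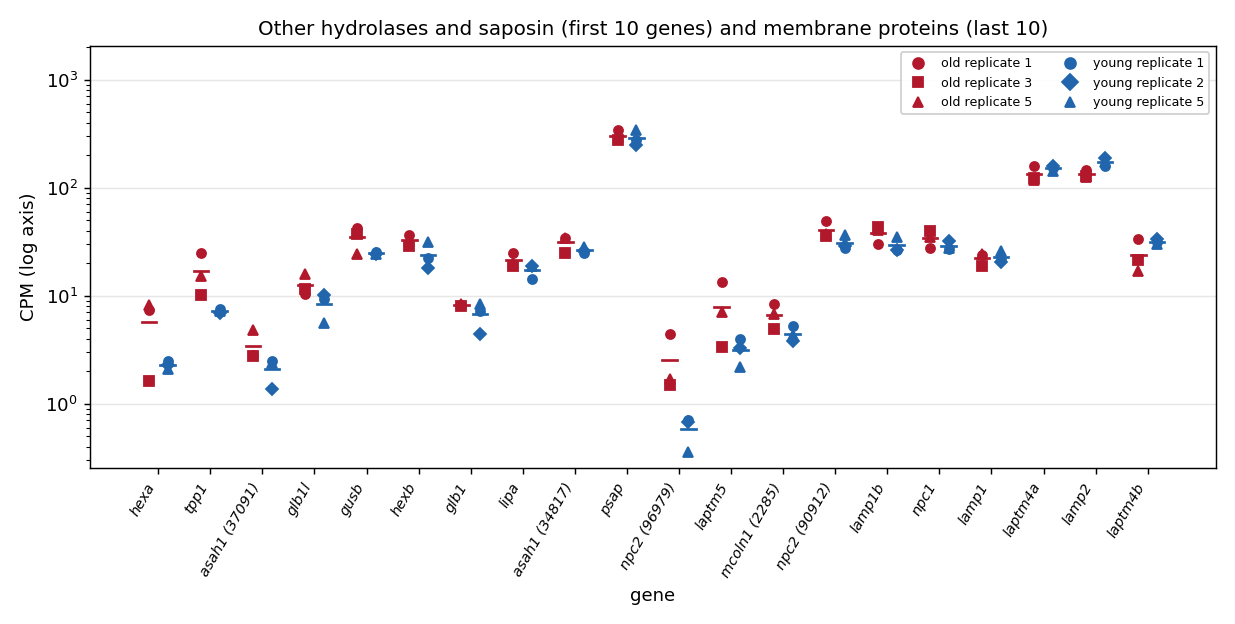
CPM (log axis) of the other hydrolases and psap (first 10 genes) and of the membrane proteins and lipid transporters (last 10 genes) with a mean of at least 1 CPM, in 3 old (red) and 3 young (blue) ventricles; points are libraries and bars are group means. The old libraries of tpp1 and of the npc2 gene with fewer reads lie above the young ones, hexa and laptm5 have old replicate 3 at or below the young level, and lamp2 has its old libraries (124 to 147 CPM) below its young ones (159 to 189 CPM).

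No gene of the proton pump passed the threshold in edgeR or in any of the 15 alternative settings, DESeq2 among them. Of its 26 genes with reads 18 had a fitted value above 0 and 8 below, with 2 (7.69%) at an unadjusted p under 0.05, near the 8.64% of all tested genes that were higher at that p. Its V1 and V0 parts are given apart, and the difference between them was not tested. In V1, the part that splits ATP, 11 of 13 genes were above 0 and 6 (46.2%, against 10.4% of all tested genes) had all old libraries above all young ones. In V0, the membrane part, 4 of the 9 genes within the symbol rule were above 0. None of these separated upward, while 1 (11.1%, near the 9.66% of all tested genes) separated downward. The V0 gene tcirg1, outside that rule, is given below.

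The V1 genes with an unadjusted p under 0.05 were one for subunit C and one for subunit A. Subunit C is the clamp that comes off when the pump is taken apart, and subunit A holds the catalytic ATP sites. atp6v1c1 (ENSDARG00000035880) had 6.98, 5.62 and 8.06 CPM in old ventricles and 4.16, 4.49 and 3.98 CPM in young ventricles, and the fitted log2 fold change was 0.71 ± 0.25 (SE, n = 3 each, 0.15 to 1.27), with adjusted p-values of 0.215 in edgeR and 0.0938 in DESeq2. The other copy of atp6v1c1 (ENSDARG00000023967) had 14.8, 13.3 and 17.2 CPM in old ventricles and 12.3, 12.1 and 13.2 CPM in young ventricles (0.27, −0.16 to 0.70). The old fish were above the young fish in both copies, by a wide gap in the first and a narrow one in the second.

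atp6v1a (ENSDARG00000034534) had 25.7, 16.3 and 15.04 CPM in old ventricles and 12.2, 13.7 and 12.9 CPM in young ventricles (0.56, 0.02 to 1.09, edgeR adjusted p = 0.308). Its second copy (ENSDARG00000076318) had 9.34, 5.25 and 5.45 CPM in old ventricles and 4.56, 5.02 and 3.01 CPM in young ventricles (0.67, −0.06 to 1.40). Neither overlapped between the ages, and old replicate 1 was highest in both. The copies of atp6v1b2, which supplies the B subunit that alternates with A in the head of the pump, stood on opposite sides of 0: ENSDARG00000013443 had 36.5, 30.2 and 34.3 CPM in old ventricles and 24.6, 30.3 and 26.0 CPM in young ventricles (0.32, −0.08 to 0.72), whereas ENSDARG00000043465 had 10.15, 11.7 and 13.5 CPM in old ventricles and 14.1, 15.8 and 14.04 CPM in young ventricles (−0.31, −0.75 to 0.13). The second copy separated downward without overlap, and the difference between the copies was not tested.

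Apart from subunit C, the stator, shaft and regulatory subunits of V1 had no gene with an unadjusted p under 0.05. atp6v1g1, a stator subunit and the V1 gene with most reads, had 66.1, 55.9 and 61.0 CPM in old ventricles and 46.7, 54.5 and 51.6 CPM in young ventricles (0.26, −0.11 to 0.63). atp6v1d, the central shaft, had 47.7, 47.8 and 55.2 CPM in old ventricles and 44.7, 44.9 and 45.8 CPM in young ventricles (0.15, −0.20 to 0.51). Both separated without overlap by small steps. atp6v1e1a, atp6v1e1b, atp6v1f and the regulatory subunit gene atp6v1h gave log2 fold changes of 0.18, 0.41, 0.19 and 0.08, each with overlapping libraries, and atp6v1c2 had at most 2 reads in any library.

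In V0 the proteolipid ring that carries the protons is encoded by atp6v0c. Its copy with most reads (ENSDARG00000057853) had 168, 103 and 105 CPM in old ventricles and 103, 144 and 108 CPM in young ventricles, so that 1 fish of each age stood apart from 4 similar ones. Its log2 fold change of 0.08 (−0.44 to 0.60) became −0.19 without old replicate 1 and −0.005 without young replicate 1. The other copy (ENSDARG00000036577) had 50.2, 55.1 and 46.1 CPM in old ventricles and 49.3, 65.4 and 56.1 CPM in young ventricles (−0.17, −0.57 to 0.22, and 0.007 with library size alone).

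atp6v0d1, which couples the ring to the shaft, had 70.7, 64.7 and 63.4 CPM in old ventricles and 60.5, 76.7 and 71.5 CPM in young ventricles (−0.07, −0.44 to 0.30, and 0.11 with library size alone). The a subunit forms the channels through which protons pass. atp6v0a1 (ENSDARG00000020847) had 25.5, 27.1 and 26.4 CPM in old ventricles and 29.4, 34.8 and 33.2 CPM in young ventricles, the 1 V0 gene whose old libraries all lay below the young ones, at −0.30 (−0.68 to 0.07, edgeR adjusted p = 0.440). atp6v0a2 (ENSDARG00000035565) gave 0.30 (−0.32 to 0.92), atp6v0b −0.06 (−0.65 to 0.53) and atp6v0e1 −0.34 (−0.95 to 0.27), all with overlapping libraries. The second copies of the a subunit genes were at the limit of detection: atp6v0a2 (ENSDARG00000035538) had 1, 5 and 6 reads in old ventricles and 2 in each young ventricle, and atp6v0a1 (ENSDARG00000015174) had at most 3 reads in any library.

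The a3 isoform of that subunit, tcirg1 (ENSDARG00000105142), which in mammals serves osteoclasts and other cells that secrete acid, lies outside the symbol rule and was listed with the other lysosomal genes. It had 19.9, 10.7 and 13.3 CPM in old ventricles and 7.56, 5.85 and 6.03 CPM in young ventricles. The groups did not overlap, and the log2 fold change was 1.18 ± 0.27 (SE, n = 3 each, edgeR adjusted p = 0.0855, DESeq2 adjusted p = 0.00668). The V0 members with a mean of at least 1 CPM ran from −0.34 to 0.30, and the difference between them and tcirg1 was not tested. A second tcirg1 gene (ENSDARG00000016835) had 0.136, 0.642 and 0.454 CPM in old ventricles and 0.901, 0.531 and 0.817 CPM in young ventricles, with overlap (−0.87 ± 0.63, edgeR adjusted p = 0.564).

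Summed over subunits, V1 had 317, 280 and 303 CPM in old ventricles and 236, 268 and 262 CPM in young ventricles, without overlap and with a ratio of means of 1.18. The V0 sum was 400, 300 and 303 CPM in old ventricles and 305, 406 and 343 CPM in young ventricles, with full overlap. The ratio of summed V1 to summed V0 within a library, which no scaling between libraries can move, was 0.794, 0.933 and 1.00 in old ventricles and 0.774, 0.660 and 0.764 in young ventricles. Old replicate 1 lay close to the young fish in that ratio. With the most counted V0 gene, atp6v0c (ENSDARG00000057853), left out, the ratio was 1.37, 1.42 and 1.53 in old ventricles and 1.17, 1.02 and 1.12 in young ventricles, again without overlap. These sums weight genes by read number and were not tested. The V0 sum leaves out tcirg1 (ENSDARG00000105142), a V0 subunit gene outside the symbol rule. It had 19.9, 10.7 and 13.3 CPM in old ventricles and 7.56, 5.85 and 6.03 CPM in young ventricles. Counting it in V0 would lower the old ratios by a larger share than the young ones, and the ratio with it was not computed. The median log2 fold change of the 7 V0 genes with a mean of at least 1 CPM was −0.07, but 0.11 with library size alone. It was 0.03 with the replicate number as a block, a fit in which only replicates 1 and 5 bear on age. The median of the 12 V1 genes was 0.27, and 0.45 with library size alone.

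**Figure D4:**
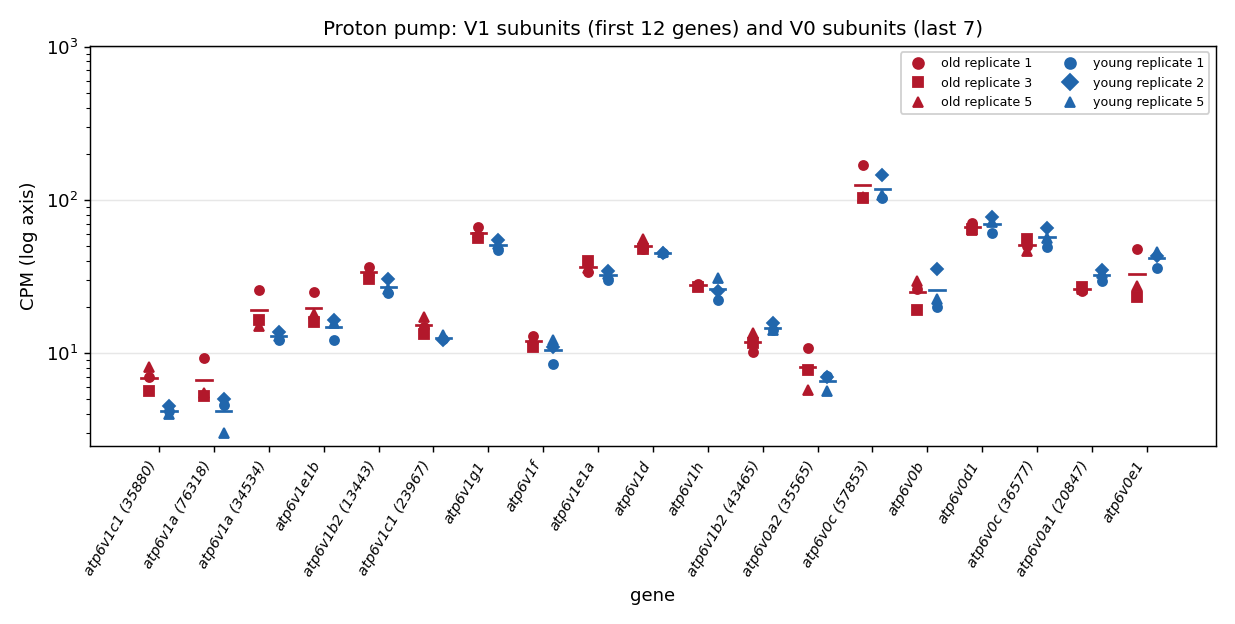
CPM (log axis) of the V1 subunits (first 12 genes) and V0 subunits (last 7 genes) of the proton pump with a mean of at least 1 CPM, in 3 old (red) and 3 young (blue) ventricles; points are libraries and bars are group means. Old libraries lie above young ones in 6 V1 genes, and the atp6v0a1 gene with more reads and the atp6v1b2 gene with fewer reads show the reverse.

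The accessory proteins, which help assemble the pump, gave no separation. atp6ap1a had 3.76, 5.62 and 4.71 CPM in old ventricles and 2.35, 4.88 and 2.09 CPM in young ventricles (0.59, −0.25 to 1.44), and atp6ap1b gave 0.31 (−0.16 to 0.78). atp6ap2, also known as the prorenin receptor, had 35.0, 30.1 and 32.7 CPM in old ventricles and 30.4, 39.3 and 30.8 CPM in young ventricles (−0.04, −0.45 to 0.37). atp6ap1lb was counted with at most 5 reads in any library.

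The old fish differed among themselves, and in a repeated order. The SD of log2 CPM was larger among old than among young libraries in 39 of the 56 members with a mean of at least 1 CPM, where the share of all 13262 genes at that level was 54.1%. Old replicate 3 was the lowest old library in 35 of these members (62.5%, against 30.9% of all genes) and old replicate 1 the highest in 34 (against 37% of all genes). The same order held in the macrophage markers, with old replicate 3 lowest in 18 of the 19 listed markers at that level. Of the 25 macrophage markers with reads 23 had a fitted value above 0, and 19 were higher at an unadjusted p under 0.05 (76%, against 8.64% of all tested genes). In edgeR 1 was past the threshold: lcp1, the pan-leukocyte actin bundler L-plastin, had 24.8, 10.8 and 21.6 CPM in old ventricles and 6.66, 5.85 and 4.09 CPM in young ventricles (log2 fold change 1.78 ± 0.33, SE, n = 3 each, edgeR adjusted p = 0.0483). Most of the macrophage sum came from 2 genes of the invariant chain, the substrate of cathepsin S in mammals: cd74a had 368, 143 and 325 CPM in old ventricles and 133, 108 and 82.8 CPM in young ventricles, and cd74b had 234, 74.3 and 208 CPM in old ventricles and 56.2, 45.6 and 29.2 CPM in young ventricles.

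Set against the macrophage markers, the cathepsin S genes did not separate by age. The sum of ctss2.1 and ctss2.2 was 62.6, 16.6 and 27.6 CPM in old ventricles and 10.51, 10.8 and 7.81 CPM in young ventricles, with old replicate 1 far above the rest. Per 100 CPM of macrophage markers, ctss2.1 and ctss2.2 together had 5.39, 5.20 and 3.42 CPM in old ventricles and 3.46, 4.84 and 4.96 CPM in young ventricles. In the same terms tpp1 had 2.13, 3.19 and 1.90 CPM in old ventricles and 2.47, 3.09 and 4.61 CPM in young ventricles, so both ratios overlapped between the ages. The marker sum is not a count of macrophages, as it rests mostly on cd74a and cd74b and includes the pan-leukocyte gene lcp1. It also lacks the macrophage gene mpeg1.1, whose symbol matched no gene in the name table. Found through the study's own gene table (ENSDARG00000055290), mpeg1.1 had 19.7, 4.98 and 8.39 CPM in old ventricles and 3.91, 3.04 and 1.74 CPM in young ventricles. The groups did not overlap, at a log2 fold change of 1.93 ± 0.50 (SE, n = 3 each, edgeR adjusted p = 0.116, DESeq2 adjusted p = 0.0110). Ratios to mpeg1.1 were not computed. The ratios to the marker sum are not values per macrophage, and the part that macrophages had in them was not tested.

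Osteoclast-like markers summed to 42.8, 46.8 and 39.3 CPM in old ventricles and 34.1, 25.3 and 25.0 CPM in young ventricles, and tnfrsf11a, the receptor of the osteoclast signal RANKL, was past the threshold (24.1, 13.8 and 17.8 CPM in old ventricles and 2.30, 3.09 and 3.63 CPM in young ventricles, log2 fold change 2.63, edgeR adjusted p = 0.00542). Of the other markers on that list with reads, calcr, ocstamp and acp5 had less than 1 CPM in every library, mmp9 had at most 3.81 CPM, and nfatc1 had 14.7, 29.7 and 17.6 CPM in old ventricles and 27.7, 21.4 and 17.6 CPM in young ventricles. All of these overlapped between the ages, so the separation of the sum came with tnfrsf11a. Neutrophil markers summed to 23.5, 17.6 and 116 CPM in old ventricles and 18.4, 15.3 and 11.6 CPM in young ventricles, an overlap in which old replicate 5 alone was high. Lymphocyte markers summed to between 14.5 and 31.6 CPM in old ventricles and between 0.664 and 2.08 CPM in young ventricles. Most of the old sums came from ighm, the immunoglobulin M heavy chain. It had 19.1, 13.0 and 24.9 CPM in old ventricles and at most 0.966 CPM in young ventricles. Of the 14 lymphocyte markers with reads 13 had a fitted value above 0, but only 2 had a mean of at least 1 CPM. From these lists ncf1, a subunit of the phagocyte oxidase (edgeR adjusted p = 0.0256), and ighm (0.00696) were past the threshold upward. hbaa1, a haemoglobin chain (0.0307), and gata1a, the erythroid factor (0.0434), were past it downward. Of these marker genes ighm alone stayed past the threshold in every setting: the highest adjusted p was 0.0705 for tnfrsf11a, 0.158 for ncf1 and 0.214 for lcp1, all without young replicate 2, as for gata1a at 0.141, and for hbaa1 it was 0.0828 with the robust fit.

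**Figure D5:**
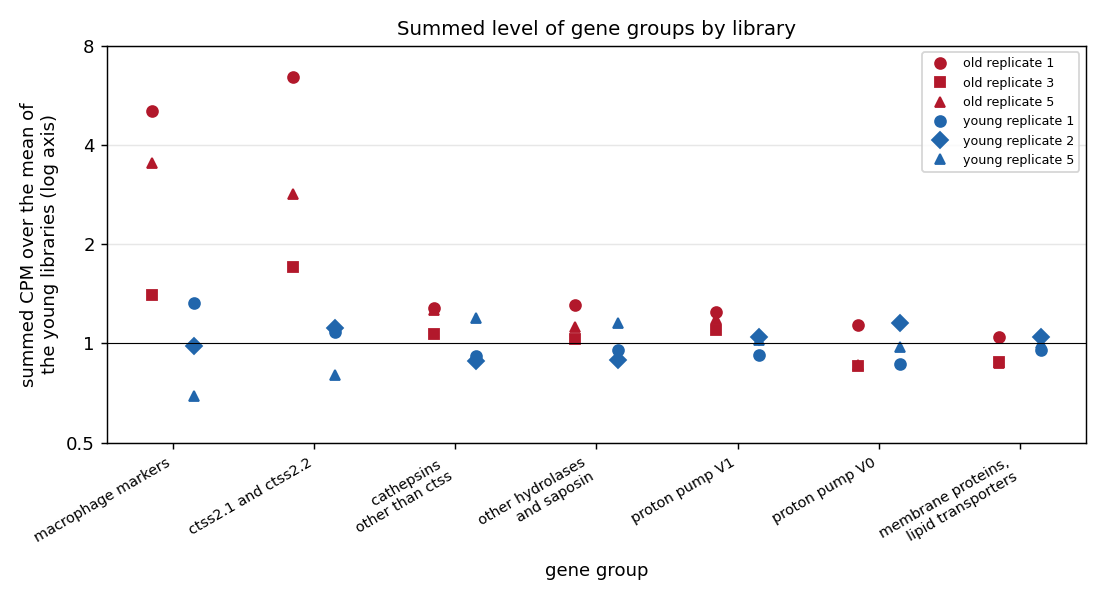
Summed CPM of gene groups in each library over the mean of the 3 young libraries (log axis; old in red, young in blue, 1 point per library). Macrophage markers and the pair ctss2.1 and ctss2.2 spread widely, with old replicate 1 at 5.09 and 6.44 and old replicate 3 at 1.40 and 1.71, while the other cathepsins, the other hydrolases, the V1 and V0 subunits and the membrane proteins lie between 0.853 and 1.30 in every library.

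The rest of the lysosome was read from 5 lists of other genes, 135 of them with reads. In edgeR 1 was past the threshold upward and 1 downward, 14 and 3 had an unadjusted p under 0.05 (10.4% upward, against 8.64% of all tested genes), and the median log2 fold change was 0.16. DESeq2 called 5 higher and 2 lower, where 2.99% and 1.96% of all tested genes were. Among 34 other membrane and transport genes 23 had a fitted value above 0. In edgeR 6 of these were higher (17.6%, against 8.64%) and 2 lower (against 6.5%) at an unadjusted p under 0.05, and DESeq2 called 3 higher and 2 lower. tmem192, a lysosomal membrane protein used as a tag to isolate the organelle, rose: it had 8.47, 9.15 and 14.8 CPM in old ventricles and 3.15, 3.53 and 3.47 CPM in young ventricles (log2 fold change 1.67 ± 0.28, SE, n = 3 each, edgeR adjusted p = 0.0349). slc38a9, the arginine sensor through which the lysosome signals to the growth kinase mTORC1, fell: it had 4.03, 2.94 and 3.80 CPM in old ventricles and 13.8, 10.9 and 19.4 CPM in young ventricles (−2.03 ± 0.27, edgeR adjusted p = 0.0175). The libraries of the ages lay well apart in both genes. Without young replicate 1 the adjusted p was 0.124 for tmem192 and 0.0687 for slc38a9, and without young replicate 2 it was 0.163 and 0.0522. tmem192 also missed the threshold without young replicate 5 (0.0875) and without old replicate 5 (0.0506), with limma-voom (0.0708), with at least 10 reads over the libraries (0.0631), with bias-adjusted deviances (0.054) and with the replicate block (0.116), and slc38a9 with the replicate block (0.0615).

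Among 46 genes listed with the other hydrolases 34 had a fitted value above 0 and 0 were past the threshold in edgeR. At an unadjusted p under 0.05 in edgeR 5 were higher (10.9%, near the 8.64% of all tested genes) and 1 was lower. DESeq2 called 2 higher, dnase2 and sumf1, where 2.99% of all tested genes were. dnase2, the acid nuclease that digests the DNA of engulfed cells, stood at the edge in edgeR (1.83 ± 0.35, edgeR adjusted p = 0.0520). It had 19.6, 8.19 and 8.97 CPM in old ventricles and 3.2, 3.58 and 3.57 CPM in young ventricles. Next came sumf1, which activates the sulfatases and is not itself a hydrolase (1.2 ± 0.27, edgeR adjusted p = 0.0816). Genes that sort enzymes to the lysosome were evenly divided, 13 above 0 and 14 below. At an unadjusted p under 0.05 in edgeR 3 were higher (11.1%, near the 8.64% of all tested genes). The smallest p among them belonged to m6pr, the small mannose-6-phosphate receptor (0.59 ± 0.19, edgeR adjusted p = 0.191), and to sort1 (ENSDARG00000029402), sortilin (1.07 ± 0.43, edgeR adjusted p = 0.284).

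Of 19 regulators around the TFE transcription factors and mTORC1, which in mammals switch lysosomal genes together, 8 were above 0 and 11 below, and 0 had an unadjusted p under 0.05 in edgeR or a call in DESeq2. Closest were tfec, with 0.589, 0.428 and 0.702 CPM in old ventricles and 0.300, 0.242 and 0.102 CPM in young ventricles, and a mitf gene (ENSDARG00000037833) at a log2 fold change of −1.59 ± 0.74. Of 9 cathepsin inhibitors 5 were above 0 and 4 below, again with 0 at an unadjusted p under 0.05 in edgeR and 0 in DESeq2. cst3, cystatin C, which blocks secreted cysteine cathepsins, had 147, 165 and 157 CPM in old ventricles and 156, 157 and 170 CPM in young ventricles (−0.04 ± 0.15).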

How the data were processed

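Poly(A)-selected, strand-specific libraries of ventricular RNA were made by the authors from 3 old and 3 young fish. The deposited table holds raw counts per Ensembl gene. Per the labels and the methods of the study, reads were demultiplexed with bcl2fastq 2.20.0.422, aligned to GRCz11 (Ensembl annotation) with STAR 2.5.4b and counted by strand with featureCounts 1.6.3, and reads that mapped to several places or genes were discarded, so near-identical copies may lose reads.

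Only genes counted at least 1 time in some library were scaled by TMM and tested, old over young, with edgeR 4.0.16 in R 4.3.3. The test was quasi-likelihood with age group as the only factor, Benjamini-Hochberg adjustment and a threshold of 0.05. It had first been run on simulated counts whose spread between libraries depended only on the level of a gene. Those counts held no outlying fish, so that run cannot show how the test behaves with them. DESeq2 1.42.0, limma 3.58.1 (voom), other scalings and filters, a replicate block and fits without each library were the alternatives. In the replicate block the age difference rests on replicates 1 and 5, the numbers found in both groups. CPM are reads per 1000000 counts of the scaled library. Errors are SE of the fitted log2 fold change, worked out from that value and the F statistic of the quasi-likelihood test. Intervals are at 95% and are built on these SE. P-values set the difference between the ages against the spread between these libraries, estimated with information shared across genes. Limits at 0 counts (3 counts per library) cover counting error only. The labels name no batch.

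Symbols came from a name table covering 29201 genes, and that of mpeg1.1 from the study's own gene table. Members and lists were chosen with earlier results of these data known. Members named were those called by edgeR or DESeq2, those at an unadjusted p under 0.05, the 4 with most reads in each role, and those at the limit of detection in one group only. From other lists, called genes, the 2 of smallest p and the 2 macrophage markers with most reads were named. Any further gene (among them ctsa, ctsf, ctsk, glb1, tcirg1, calcr, ocstamp, cst3 and the pump subunits outside that rule) was named for its role after its values were seen. Of 259 list symbols 40 matched no gene in the name table. The planned promoter and protein comparisons were not run, and no sequences were used here.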

Additional observations from a re-analysis of the deposited data

How the results depend on the processing

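Over all genes the count past the threshold (213) was 65 with at least 10 reads over the libraries, 111 with filterByExpr, 1229 with DESeq2, 94 with limma-voom, 111 with bias-adjusted deviances and 126 with the replicate number as a block, and leaving out 1 library gave 19 to 412. The members' count (0) was 4 with DESeq2 and 1 with the replicate block (ctss2.1, adjusted p = 0.0394), and 0 to 4 with 1 library left out, 4 without old replicate 3 (ctss2.1, ctss2.2, tpp1 and hexa). The replicate block takes old replicate 3 and young replicate 2 out of the age difference, as their numbers have no partner. Its values therefore compare replicates 1 and 5 of each age only. The cathepsins' count (0) was 2 with DESeq2, 1 with the replicate block and 0 to 2 with 1 library left out. The proton pump stayed at 0 in all 15 settings. The numbers 1 and 5 name a library in each age group, but same-numbered libraries did not deviate together (r of −0.0345 and 0.0299 across 13262 genes). The labels do not say whether such libraries share more than a number, and a correlation over all genes in these pairs cannot decide it. With library size alone 29 members were higher and 0 lower at an unadjusted p under 0.05. That setting moved the median of all genes with a mean of at least 1 CPM up by 0.178 on the log2 scale. The share of all tested genes at that p was not computed there, so the 29 is not a result about the members.

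Of the 31 members named by rule, 7 changed sign somewhere, none of them past the threshold in any setting. These were ctsla (−0.11 with the replicate block, −0.12 to 0.61 with 1 library left out), lgmn (−0.040 to 0.17 with 1 library left out), psap (−0.020 to 0.21 likewise), laptm4a (0.0046 with library size alone), atp6v0c ENSDARG00000036577 (0.0074 with library size alone), atp6v0c ENSDARG00000057853 (−0.19 to 0.25 with 1 library left out) and atp6v0d1 (0.11 with library size alone, 0.025 with the replicate block, −0.16 to 0.0056 with 1 library left out). The causes were not tested.

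With 3 fish per age the intervals were wide, and an adjusted p above 0.05 does not show that a gene was level. Genes under 1 CPM rest on few reads.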
